A study of Mus musculus with 6 samples.

Results

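The genes that carry a death receptor signal to apoptosis or necroptosis were followed in LPS-treated mouse renal tubular epithelial cells (mTECs), in libraries labelled as Stat3-silenced and in their controls. The set held 10 genes, chosen by symbol from the 22442 gene rows of the RNA-seq table: the receptors Tnfrsf1a, Fas and Tnfrsf10b, the adaptors Fadd and Tradd, the protease Casp8 with its relative Cflar, the kinases Ripk1 and Ripk3, and the membrane-rupturing protein Mlkl. All 10 had a row and at least 1 library above 0, and 9 of them were abundant enough to be tested. None of the 9 passed the test between the groups, which 3.23% of all tested genes passed. Mlkl, Cflar and Ripk1 were lower in each silenced library than in any control library, as were 13.2% of all tested genes. The levels themselves were uneven along the pathway: the kinase Ripk3 was at the edge of detection, and every other member was higher.

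Death receptors are cell-surface proteins of the TNF receptor family whose intracellular death domain recruits adaptors when ligand binds. Fadd brings in caspase-8, whose cleavage of downstream caspases gives apoptosis, and Cflar (c-FLIP) pairs with caspase-8 and limits it. Where caspase-8 is inactive, Ripk1 can bind Ripk3, which phosphorylates Mlkl, and Mlkl then opens the plasma membrane; this lytic form of death is called necroptosis and has been studied in injured renal tubules.

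Poly(A) RNA of 6 libraries was measured by paired-end sequencing, 3 for each of 2 groups. The group labelled LPS was transfected with a negative control, and the group labelled LPSKD with an interfering RNA against Stat3, the transcription factor under study; the labels call it an siRNA, whereas the reagent list of the study gives a Stat3 shRNA. Both groups then received lipopolysaccharide (LPS), the bacterial outer-membrane component that activates innate immune receptors, at 20 μg/ml for 24 h. Cells without LPS were not analysed here, so nothing below measures the effect of LPS. The labels describe mTECs as magnetically sorted, and the study lists them as immortalised primary cells; nothing in the labels says that the 3 libraries of a group came from separate cultures, so p-values measure the spread between these libraries, which may be technical.

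The unit is FPKM (fragments per kilobase of length, scaled to library size), which allows genes to be compared per length within a library. That length matched the annotated coding length, with up to 10 bases added, for 97.7% of the genes above 0. The libraries held between 24084827 and 25422171 fragments, so depth was even. The silencing could not be seen in the RNA of its target. Stat3 stood at 34.6, 31.4 and 35.2 FPKM in the LPS libraries and at 30.8, 35.2 and 34.3 FPKM in the LPSKD libraries, a log2 fold change of -0.01 ± 0.07 (SE, n = 3 per group; adjusted p = 0.944 by limma, exact two-sided permutation p = 0.7, where 0.1 is the smallest that 3 against 3 can give). Groups are for this reason named by label, LPS or silenced, and directions are given by those labels. Of 12 tubular epithelial markers, 10 were tested, 4 rose (Pax2, Pax8, Cdh16 and Aqp1) and 1 fell (Krt18); the proximal tubule transporter Slc34a1 was at 0 in all 6 libraries and the receptor Lrp2 was near 0. The summed level of these markers was 3237 to 3315 FPKM in the LPS libraries and 3197 to 3230 FPKM in the silenced libraries. Most of that sum was Krt8 and Krt18, at means of 1188 and 1227 FPKM, so it does not show the 4 rises. The 8 immune cell markers summed to 58.6 to 65.1 and to 61.6 to 74.9 FPKM, respectively. Of the 5 tested, Csf1r rose (24.4 to 33.3 FPKM) and was the 1 called, while 4 had negative log2 fold changes. Cd68 was lower in every silenced library (13.7 to 11.1 FPKM; adjusted p = 0.197, limma). Lyz2 averaged 21.6 and 21.4 FPKM, and Itgam, Cd3e and Cd79a were near 0. The 8 fibroblast and endothelial markers summed to 15.6 to 21.2 and to 11.9 to 22.2 FPKM, and none was called. The part of these markers in the results below was not tested.

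Because Stat3 is a DNA-binding factor, the 250 bases before the annotated starts of the members were searched for the letters TTCNNNGAA, the palindrome that STAT proteins bind, where N is any base and the letters read the same on both strands. RefSeq (GRCm38.p6) gave promoters for 8 of the 10 members, 9 in all since Ripk1 had 2. These starts can differ from the gene positions given below, which come from another annotation. The searched bases of Tnfrsf1a, of Casp8 and of the second Ripk1 start lie inside those positions. Other starts were not searched. The letters occurred in 3 of the 9, against 7.02% of 32851 promoters of the same length. The 4 matches are shown because they are where Stat3 could be looked for in this gene set, each with up to 10 bases on either side, read along the gene's strand, and with the matched 9 letters in capitals. A match is only a string of letters, and whether Stat3 was bound there was not tested.

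Fas (chr19:34290556-34290584, plus strand, match beginning 93 bases before the start): tcaaagcgatTTCTGGGAAgacctgaata

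Ripk1 (chr13:34002756-34002784, plus strand, match beginning 108 bases before the second start): agaagctggtTTCCCGGAAggggcggagg

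Ripk1 (chr13:34002853-34002881, plus strand, match beginning 11 bases before the second start): acttcaaacgTTCCCGGAAatcgaaaagc

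Tnfrsf1a (chr6:125349473-125349497, plus strand, match beginning 244 bases before the start): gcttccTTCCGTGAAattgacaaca

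The palindromic letters in both Ripk1 matches are identical. Mlkl and Cflar, the members with the smallest p values between the groups, held no match. Their 250 bases before the start are given in full, on the gene's own strand, for comparison with the sites above.

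Mlkl (chr8:111338206-111338455, minus strand): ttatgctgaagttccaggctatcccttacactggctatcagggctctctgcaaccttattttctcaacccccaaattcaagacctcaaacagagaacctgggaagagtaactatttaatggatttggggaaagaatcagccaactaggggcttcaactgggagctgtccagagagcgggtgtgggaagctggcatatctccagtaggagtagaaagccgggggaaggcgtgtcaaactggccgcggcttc

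Cflar (chr1:58711241-58711490, plus strand): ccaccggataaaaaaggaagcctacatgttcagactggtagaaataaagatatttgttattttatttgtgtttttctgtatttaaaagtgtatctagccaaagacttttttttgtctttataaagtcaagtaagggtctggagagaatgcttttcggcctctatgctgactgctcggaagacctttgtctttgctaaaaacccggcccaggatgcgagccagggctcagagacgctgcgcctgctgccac

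Neither sequence has a base in capitals, since none of the searched letters were found in it. A pair of GAAA repeats with NN between them, the letters of the interferon response element, was searched on both strands and occurred in 0 of the 9 member promoters and in 2.98% of all promoters. The kappaB site, bound by NF-kappaB factors, was also searched on both strands, and it occurred in 0 of the 9 and in 7.25% of all. No overlap between the motifs arose among the members. Mlkl carried 5 CpG dinucleotides in these bases and Cflar 7, against a median of 6 over all promoters.

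The plot of member levels orders the genes from the most to the least abundant. Tnfrsf1a, the principal TNF receptor, averaged 52.6 FPKM over the 6 libraries, higher than 82.4% of the 16837 genes above 0. Casp8 averaged 51.8 FPKM, and its range over the libraries overlapped that of Tnfrsf1a. Next came Cflar at 38.6 FPKM and the TRAIL receptor Tnfrsf10b at 34.7 FPKM, whose ranges also overlapped. Fadd (25.1 FPKM) and Ripk1 (21.4 FPKM) formed another overlapping pair. Below them no neighbours overlapped: Tradd stood at 15.6 FPKM, Mlkl at 5.22 FPKM, Fas at 0.722 FPKM and Ripk3 at 0.181 FPKM. Each of these steps was seen in all 6 libraries, with a 2.99-fold step from Tradd to Mlkl, a 7.22-fold step from Mlkl to Fas and a 3.98-fold step from Fas to Ripk3. These are mRNA levels per length of cells in bulk, in which fewer expressing cells and less RNA per cell cannot be told apart.

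**Figure D1:**
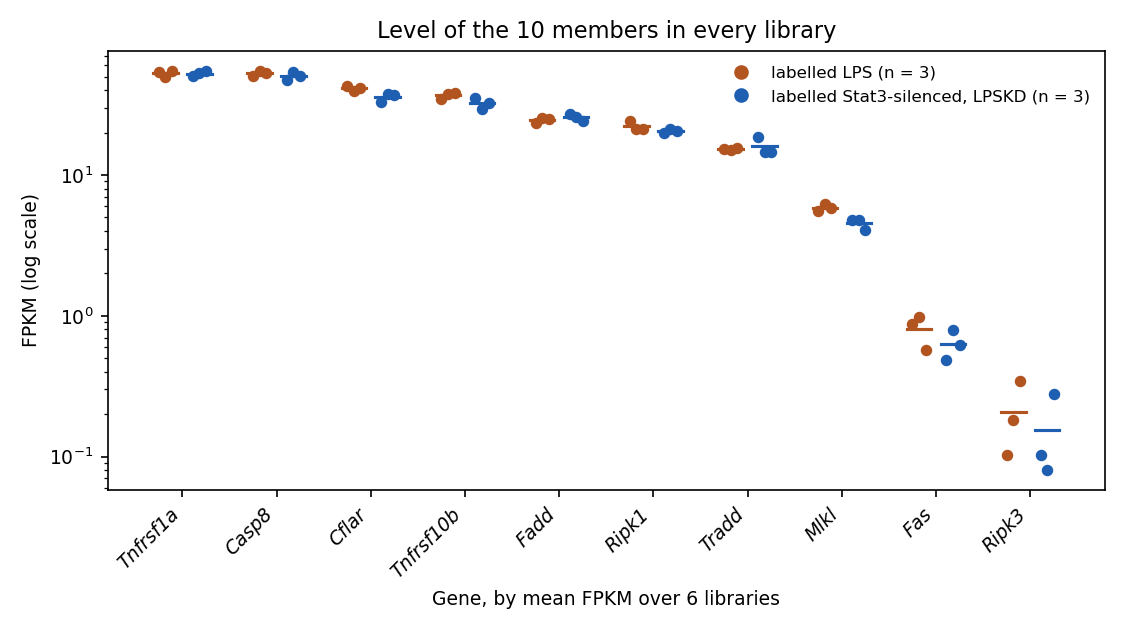
Level of the 10 members (y axis, FPKM on a log scale) against gene (x axis, ordered by mean), with a point for each library, a line for each group's mean, and 3 libraries labelled LPS beside 3 labelled Stat3-silenced (LPSKD). Tnfrsf1a averaged 52.6 FPKM and Ripk3 0.181 FPKM, and Fas and Ripk3 show the widest scatter between libraries.

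Over the set, 9 of the 10 members reached the mean of 0.5 FPKM needed for the test, and Ripk3 did not. At an adjusted p under 0.05 in limma, 0 of the 9 were called, where 3.23% of the 11723 genes tested were called in either direction and 1.66% were called lower in the silenced libraries. At an unadjusted p under 0.05, 3 of the 9 were lower (Mlkl, Cflar and Tnfrsf10b) and 0 were higher, where 8.91% of all tested genes were lower. The groups did not overlap, with the silenced libraries lower, for 3 of the 9 (Mlkl, Cflar and Ripk1), where 13.2% of all tested genes did so. With limma voom on fragments recovered from the FPKM values, 0 of the 9 were called, where 5.07% of all genes were. The log2 fold change (silenced minus LPS) was negative for 7 of the 9 and its median was -0.11, against 6154 of 11723 negative and a median of -0.01 over all tested genes.

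**Figure D2:**
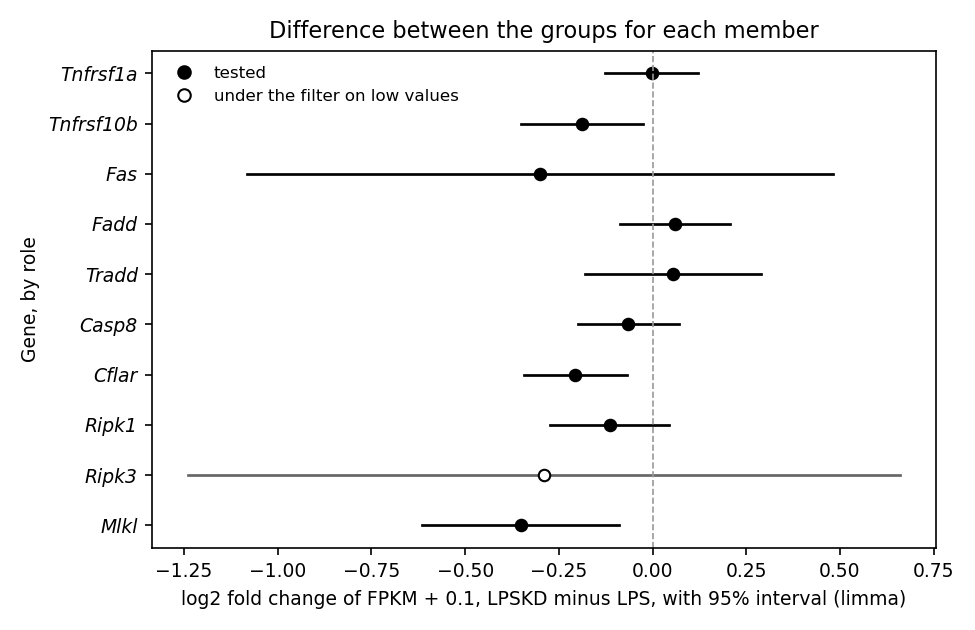
Difference between the groups for each member (x axis, log2 fold change of FPKM + 0.1, silenced minus LPS) by gene in order of role (y axis), with a point for the limma estimate and a bar for its 95% interval, and an open point for Ripk3, which was under the filter on low values. The intervals of Mlkl, Cflar and Tnfrsf10b lie below 0, whereas those of Fas and Ripk3 are the widest, reaching from -1.08 to 0.48 and from -1.24 to 0.66.

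Among the receptors, Tnfrsf1a (ENSMUSG00000030341, chromosome 6, 125349362 to 125362484, GRCm38), which binds TNF and is found on most cell types, measured 54.0, 49.5 and 54.5 FPKM in the LPS libraries and 50.1, 53.0 and 54.5 FPKM in the silenced libraries. The groups covered almost the same range, and their means were 52.6 ± 2.72 and 52.5 ± 2.22 FPKM (SD, n = 3 each). On the log2 scale the difference was -0.00 ± 0.05 (SE; adjusted p = 0.987, limma), with a 95% interval from -0.13 to 0.12. Its sign turned to positive when each library was centred on its median (0.0035) and under quantile normalization (0.0053), so no direction is given for it. In percent, the 95% interval for Tnfrsf1a mRNA ran from -8.40% to 8.80%, and it covers only the spread between these libraries.

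Tnfrsf10b (ENSMUSG00000022074, chromosome 14, 69767472 to 69784411), the mouse receptor for the ligand TRAIL, measured 34.91, 37.86 and 37.99 FPKM in the LPS libraries. It measured 35.18, 29.58 and 32.53 FPKM in the silenced libraries. The highest silenced library, replicate 1, lay just above the lowest LPS library, so the groups overlapped. Tnfrsf10b had a log2 fold change of -0.19 ± 0.07 (SE), with an unadjusted p of 0.0278 and an adjusted p of 0.223 (limma). Of the 31-base stretches of its coding sequence, 18.4% also occur in Gm15574, which was not analysed here, so reads could have been divided between the genes. The unadjusted p was no longer under 0.05 without the variance trend, without LPS replicate 2, without LPS replicate 3, without silenced replicate 2 and without silenced replicate 3, and adjusted p values ran from 0.169 to 0.433 over all 16 alternatives.

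Fas (ENSMUSG00000024778, chromosome 19, 34290666 to 34327772), the receptor for Fas ligand, was barely transcribed. It measured 0.876, 0.982 and 0.571 FPKM in the LPS libraries and 0.489, 0.797 and 0.618 FPKM in the silenced libraries. These values rest on 25, 28 and 16 fragments and on 14, 22 and 18 fragments, respectively. The groups overlapped, and the libraries within a group differed by more than the group means did. The log2 fold change of -0.30 ± 0.34 (SE; adjusted p = 0.714, limma) had a 95% interval from -1.08 to 0.48, so a moderate loss or gain of Fas was not detectable at this depth.

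The ligands of these receptors were near 0 in the same libraries. TNF, the ligand of Tnfrsf1a, was counted with 12 fragments over all 6 libraries, of which 7 were in LPS libraries. Fas ligand (Fasl) and TRAIL (Tnfsf10) were each counted with 5 fragments in all. Over both groups these counts give 0.114 FPKM for Tnf (exact 95% Poisson interval 0.0591 to 0.200), 0.0402 FPKM for Fasl (0.0130 to 0.0938) and 0.0362 FPKM for Tnfsf10 (0.0118 to 0.0845), with intervals that cover counting error only. The log2 fold changes of the 3 ligands were -0.25 (Tnf), -0.12 (Fasl) and 0.13 (Tnfsf10), with adjusted p values from 0.864 to 0.930 (limma on all genes above 0), and each changed sign when single libraries were left out. Of the 8 ligands of the list, 7 were under the filter and 0 were called.

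Of the adaptors, Fadd (ENSMUSG00000031077, chromosome 7, 144577318 to 144582463), which links the receptors to caspase-8, measured 23.3, 25.5 and 25.0 FPKM in the LPS libraries and 27.0, 25.9 and 24.1 FPKM in the silenced libraries. The highest 2 values were silenced libraries, yet silenced replicate 3 lay within the LPS range. Fadd had a log2 fold change of 0.06 ± 0.06 (SE; adjusted p = 0.701, limma). Fadd overlaps an antisense gene, Faddos, in its coding sequence, and 36.2% of its 31-base stretches are shared with that gene; the counting is not stated to use strand, so reads from the 2 genes cannot be told apart.

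Tradd (ENSMUSG00000031887, chromosome 8, 105258286 to 105264609), the adaptor that binds the death domain of Tnfrsf1a, measured 15.3, 14.9 and 15.5 FPKM in the LPS libraries. In the silenced libraries it measured 18.8, 14.6 and 14.5 FPKM. Replicate 1 of the silenced group was the highest of the 6 libraries and its other 2 replicates were the lowest, so the SD was 2.44 FPKM there against 0.275 FPKM in the LPS group. Its log2 fold change of 0.06 ± 0.10 (SE; adjusted p = 0.838, limma) became -0.07 without silenced replicate 1, and its direction therefore rests on that library.

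Caspase-8 and Cflar set the choice between survival and death at the receptor. Casp8 (ENSMUSG00000026029, chromosome 1, 58795374 to 58847503) measured 50.8, 55.1 and 52.9 FPKM in the LPS libraries and 47.1, 54.1 and 50.8 FPKM in the silenced libraries. The groups overlapped, and the log2 fold change was -0.06 ± 0.06 (SE; adjusted p = 0.638, limma). Of the 31-base stretches of its coding sequence, 4.69% also occur in Gm20257, which was not analysed here.

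Cflar (ENSMUSG00000026031, chromosome 1, 58711508 to 58758884) lies near Casp8 on chromosome 1 and encodes c-FLIP, which resembles caspase-8 and lacks its full protease activity. It measured 42.6, 39.7 and 41.6 FPKM in the LPS libraries. It measured 33.1, 37.5 and 37.0 FPKM in the silenced libraries. Every silenced library lay below every LPS library, and the means were 41.3 ± 1.45 and 35.8 ± 2.39 FPKM (SD, n = 3 each). Cflar had a log2 fold change of -0.21 ± 0.06 (SE), a difference of -13.3% with a 95% interval from -21.2% to -4.60%. Cflar had the smallest p of the members, 0.00855 unadjusted and 0.127 adjusted (limma), and so did not pass the correction over all genes. The unadjusted p stayed under 0.05 in all 16 alternatives, and the adjusted p ran from 0.0715 with voom to 0.316. As 37.9% of its 31-base stretches also occur in Gm9845, not analysed here, its level carries that uncertainty.

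The ratio of Casp8 to Cflar FPKM was 1.19, 1.39 and 1.27 in the LPS libraries and 1.42, 1.44 and 1.37 in the silenced libraries. Its means were 1.28 ± 0.0967 and 1.41 ± 0.0367 (SD, n = 3 each). The groups overlapped, since LPS replicate 2 stood above silenced replicate 3, and Casp8 was above Cflar in all 6 libraries. The 3 tested genes whose profile over the 6 libraries lay nearest to that of Cflar were Coq9, Asap2 and Tbl2, at root mean square distances of 0.0247, 0.0260 and 0.0264 on the log2 scale after centring each gene; this is a description of 6 values per gene.

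Ripk1 (ENSMUSG00000021408, chromosome 13, 34002363 to 34037147), the kinase that sits at the receptor and can start either form of death, measured 24.3, 21.3 and 21.3 FPKM in the LPS libraries and 19.9, 21.1 and 20.6 FPKM in the silenced libraries. The groups did not overlap, but the lowest LPS library and the highest silenced library were only 21.3 and 21.1 FPKM. Ripk1 had a log2 fold change of -0.11 ± 0.07 (SE; unadjusted p = 0.135, adjusted p = 0.443, limma), so the difference was within the spread between libraries. Exons of Ripk1 overlap those of the antisense gene Serpinb6a and of Gm17084 outside its coding sequence.

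Ripk3 (ENSMUSG00000022221, chromosome 14, 55784995 to 55788865), the kinase that necroptosis requires, was nearly absent. It measured 0.103, 0.181 and 0.342 FPKM in the LPS libraries, from 4, 7 and 13 fragments. It measured 0.103, 0.0801 and 0.278 FPKM in the silenced libraries, from 4, 3 and 11 fragments. Replicate 3 was the highest library in each group, and the groups overlapped over nearly their whole range. The 24 fragments of the LPS group gave 0.208 FPKM (exact 95% Poisson interval 0.133 to 0.309), and the 18 of the silenced group gave 0.155 FPKM (0.0921 to 0.246). The log2 fold change, from the fit on all genes above 0, was -0.29 ± 0.40 (SE; adjusted p = 0.799, limma) and became 0.01 without LPS replicate 3. Ripk1 exceeded Ripk3 by 62.1 to 264 times within a library, and a difference in Ripk3 between the groups was not detectable at this depth.

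Mlkl (ENSMUSG00000012519, chromosome 8, 111311797 to 111338177), the pseudokinase that ruptures the membrane once Ripk3 has phosphorylated it, measured 5.52, 6.22 and 5.83 FPKM in the LPS libraries. It measured 4.81, 4.82 and 4.10 FPKM in the silenced libraries. All silenced libraries lay below all LPS libraries, and the fragments behind them numbered 198, 223 and 205 against 173, 167 and 150. The means were 5.86 ± 0.350 and 4.57 ± 0.413 FPKM (SD, n = 3 each). Its log2 fold change of -0.35 ± 0.12 (SE), or -21.7% with a 95% interval from -34.7% to -5.99%, was the largest of the 9 tested members. Its unadjusted p was 0.0147 and its adjusted p 0.164 (limma), so the difference did not pass the test. Without silenced replicate 3, the lowest of the 6 libraries, the unadjusted p was no longer under 0.05; adjusted p values ran from 0.138 to 0.371 over 16 alternatives. Mlkl exceeded Ripk3, the kinase that acts on it, by 14.7 to 60.1 times within a library, and no stretch of its coding sequence was shared with another gene.

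**Figure D3:**
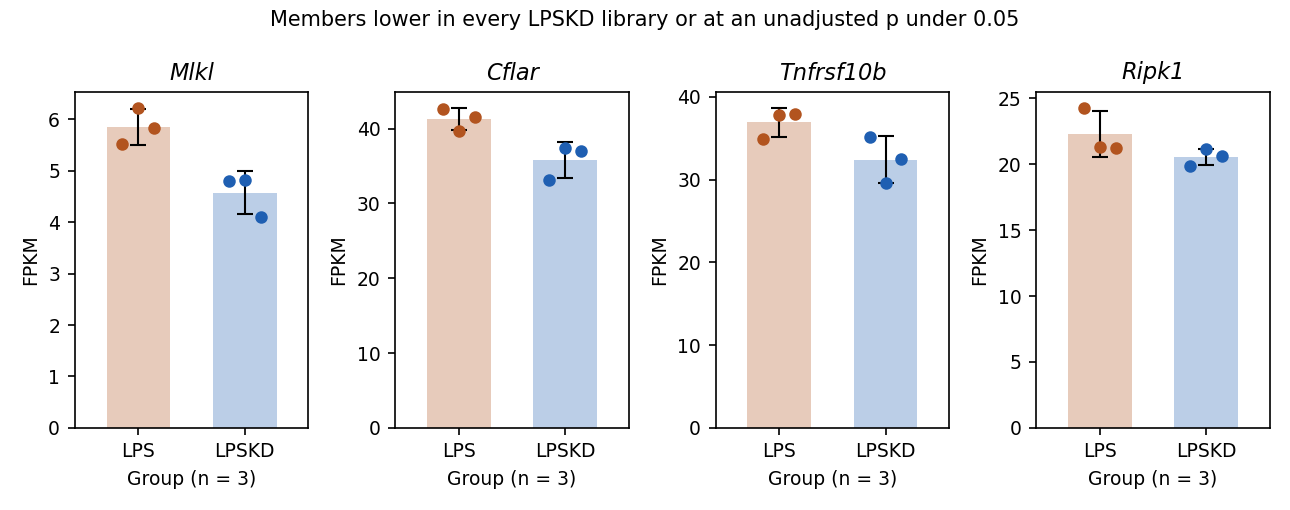
Level (y axis, FPKM, from 0) of Mlkl, Cflar, Tnfrsf10b and Ripk1 in the 2 groups (x axis), with bars for means, error bars for the SD and points for the 3 libraries of each group; these 4 members were chosen after their values were seen. The points of Mlkl, Cflar and Ripk1 do not overlap between the groups, those of Ripk1 by 21.3 against 21.1 FPKM, while those of Tnfrsf10b do.

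The promoter matches can be set beside the differences. Fas, Ripk1 and Tnfrsf1a, which held TTCNNNGAA, had log2 fold changes of -0.30, -0.11 and -0.00, respectively. Mlkl, Cflar, Casp8, Fadd and Ripk3, which did not, had -0.35, -0.21, -0.06, 0.06 and -0.29. None of these was called, and the ranges with and without a match overlapped.

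Around the core, 89 further genes of the pathway were taken from 6 lists, of which 78 were tested and 2 were called, both lower in the silenced libraries. Over all 11723 tested genes, 3.23% were called and 1.66% were called lower, so the count of 2 was near that share. The 2 called genes belong to the list of necroptosis triggers and regulators, in which 2 of 17 tested genes fell and 0 rose. Eif2ak2 (PKR), a kinase that senses double-stranded RNA, measured 38.6, 38.3 and 41.3 FPKM in the LPS libraries and 20.9, 26.5 and 23.7 FPKM in the silenced libraries. The groups were far apart, and Eif2ak2 fell by 0.74 ± 0.09 on the log2 scale (SE; adjusted p = 0.00302, limma). Tlr3, a receptor for double-stranded RNA that can engage Ripk3 through the adaptor Ticam1, measured 65.4, 69.5 and 67.7 FPKM in the LPS libraries and 52.3, 51.2 and 52.7 FPKM in the silenced libraries. Tlr3 fell by 0.37 ± 0.04 (SE; adjusted p = 0.00245, limma), with the groups again separate. Both calls were kept in all 16 alternatives.

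Zbp1, the nucleic acid sensor that binds Ripk3 without Ripk1, measured 2.23, 2.95 and 2.45 FPKM in the LPS libraries. It measured 1.38, 1.68 and 1.74 FPKM in the silenced libraries, below every LPS library. Its log2 fold change was -0.63 ± 0.19 (SE; unadjusted p = 0.00976, adjusted p = 0.135, limma), and so it did not pass. Eif2ak2, Tlr3 and Zbp1 are also known as genes that interferon induces. In the same libraries 13 of 14 tested interferon-stimulated genes fell and 0 rose, with a median log2 fold change of -2.21; their part in the values of the 3 sensors was not tested.

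The remaining lists held no call in the main limma fit. Among other TNF receptor family members, 0 of 10 tested were called. Levels over all 13 genes of that list reached from 0 for Edar, which was not tested, to 422 FPKM for Tnfrsf12a. For Tnfrsf12a, the receptor of TWEAK, the log2 fold change was 0.06 ± 0.04 (SE). Of the TNF receptor signalling complex and its ubiquitin machinery, 0 of 25 were called, with 9 negative and 16 positive log2 fold changes and a median of 0.02. The 14 tested genes of apoptosis execution below caspase-8 had a median of -0.03, and the 11 of other death-domain and death-effector-domain proteins had a median of -0.02. At an unadjusted p under 0.05, 15 of the 78 genes passed in limma, 11 lower and 4 higher. Of all 11723 tested genes, 2058 passed, 1044 of them (8.91% of all) lower and 1014 higher.

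With voom 6 of the pathway genes were called, where 5.07% of all genes were. All 6 were lower: Eif2ak2, Tlr3 and 4 more, of which 3 are described here, chosen after their values were seen. Tnfaip3 (A20), the ubiquitin-editing enzyme that restrains TNF signalling, averaged 58.3 ± 2.98 FPKM in the LPS libraries and 50.4 ± 1.91 FPKM in the silenced libraries (SD, n = 3 each; adjusted p = 0.0801 by limma and 0.02499 by voom). Rnf31 (HOIP), which builds linear ubiquitin chains at the receptor, averaged 11.5 ± 0.829 and 8.67 ± 1.13 FPKM (adjusted p = 0.105 by limma and 0.0199 by voom). Tnfrsf23, a mouse decoy receptor for TRAIL, averaged 127 ± 12.1 and 99.5 ± 8.43 FPKM (adjusted p = 0.0615 by limma and 0.0163 by voom). The calls of Tnfaip3 and Rnf31 came with voom only. Tnfrsf23 was also called by limma with quantile normalization (adjusted p = 0.0491) and without LPS replicate 3 (adjusted p = 0.0355). The calls of these 3 thus depended on the setting, whereas the members had none under any of these settings.

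**Figure D4:**
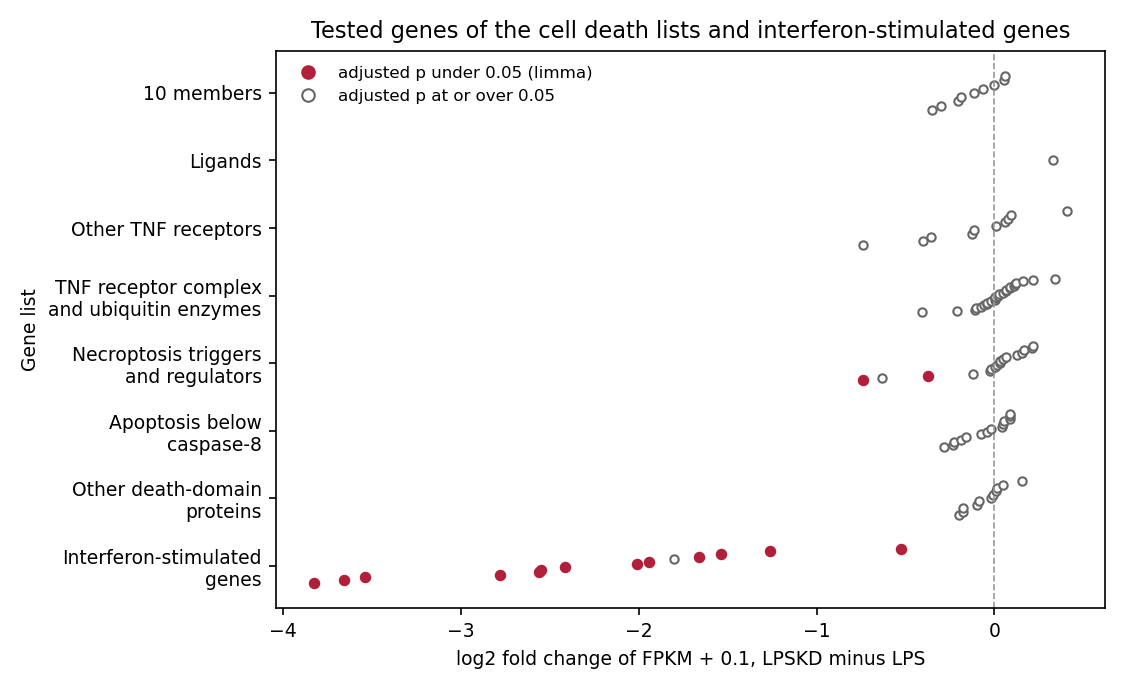
Difference between the groups (x axis, log2 fold change of FPKM + 0.1, silenced minus LPS) for every tested gene of the members, 6 pathway lists and interferon-stimulated genes (y axis), with 1 point per gene and filled points for an adjusted p under 0.05 in limma. The 9 tested members lie between -0.35 and 0.06 with 0 filled, 2 of 78 pathway genes are filled, and 13 of 14 interferon-stimulated genes are filled and lie to the left.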

How the data were processed

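The authors deposited 1 table of FPKM values per gene and library, unpooled; the aligner, gene models and filters behind it are not given in the sources used here. The submitters' processing notes name Bowtie 0.12.2, HISAT2 2.0 and StringTie 1.3.0, and the builds mm8 and GRCh38.p13, with no role for this table. Symbols and positions came from GENCODE M21 (GRCm38), which matched 22399 of 22442 identifiers. Whole fragments were recovered from FPKM, annotated coding length and library total for 97.7% of 16837 genes above 0, within a tolerance of 0.0001; 142 genes came out whole with totals raised by 0.1%. The depth of 24084827 to 25422171 fragments leaves counting error large only for genes with few fragments.

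Differences were fitted with limma 3.58.1 in R 4.3.3 (lmFit, eBayes with trend) on log2(FPKM + 0.1), which understates changes of low genes, for the 11723 genes averaging 0.5 FPKM or more, with Benjamini-Hochberg adjustment at 0.05; genes under the filter came from the same fit on all genes above 0. The code was tested on simulated data. Libraries were grouped by their titles. No 2 libraries of a group differed by as little as sampling noise (chi-square per gene 4.14 to 11.0). Members, lists and tests were chosen with earlier results of these data known. The text names all members, Stat3, the ligands Tnf, Fasl and Tnfsf10, Zbp1, called pathway genes with separate groups, and the 3 profiles nearest to the member with the smallest p; others are named as chosen after their values were seen. Alternatives were other pseudocounts, filters, normalizations, variance models, a replicate block, voom on the fragments, a fold threshold and leaving out each library. Some genes of the lists are not reported here by name.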

Additional observations from a re-analysis of the deposited data

How the results depend on the processing

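The count of members called stayed at 0 under all alternatives. The count over all tested genes was 379 and moved to 140 without the variance trend, 582 with voom, 124 by an unadjusted p with at least a 2-fold change, and 158 to 357 when 1 library was left out; the low counts were those without LPS replicate 3 (158) and without silenced replicate 1 (176), 2 (190) or 3 (168). The pathway count of 2 became 3 without LPS replicate 3, 4 with quantile normalization and 6 with voom, and the cause was not tested. The log2 fold change of Tnfrsf1a turned positive with quantile normalization (0.0053) and median centring (0.0035). Leaving out 1 library gave ranges across 0 for Ripk3 (-0.62 to 0.0063), Tnfrsf1a (-0.046 to 0.031), Tradd (-0.066 to 0.12), Stat3 (-0.064 to 0.044), Tnf (-0.54 to 0.18), Fasl (-0.43 to 0.32) and Tnfsf10 (-0.090 to 0.37). The replicate numbers did not pair the libraries (correlations of same-numbered deviations -0.02, -0.00 and -0.04), and a replicate block gave 213 calls over all genes and 0 among the members. For Ripk3, Fas and the ligands the few fragments limit what can be seen, and with 3 libraries per group a small difference in the other members can be missed.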
